A study of Mus musculus with 70 samples.

Results

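The 40 genes that encode the subunits of voltage-gated sodium and calcium channels were followed across 24 groups of mouse samples. A rule on the gene symbol set the members, with no measured value in it, though earlier results of these data were known. There were 14 sodium channel genes (10 of the Scn alpha and 4 of the Scn beta subunits) and 26 calcium channel genes (10 Cacna1, 4 Cacna2d, 4 Cacnb and 8 Cacng), out of 34677 genes in the table of gene levels. RNA was measured by bulk sequencing in 70 libraries, of which 57 came from 18 dissected regions of the adult brain, 9 from 4 regions of the embryonic brain and 4 from a pair of mouse embryonic stem cell (mESC) lines. The adult animals were C57BL/6NTac males at postnatal day 56 (P56), the embryos were collected at E14.5, and the stem cells were clones 1 and 2 of C57BL/6 stem cells (mESC B6-1 and mESC B6-2). An adult library pooled tissue punches of 3 or 4 mice, except 1 library of the nucleus accumbens that came from 1 mouse, and an embryonic library pooled 4 embryos. The study used fewer adult mice and embryos than separate pools would need, so animals gave tissue to libraries of more than 1 region. The labels do not tie animals to libraries, and the tests treated the libraries as independent.

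The adult regions were the anterior cingulate area (ACA), frontal pole (FRP) and entorhinal area (ENT) of the cerebral cortex, the nucleus accumbens (ACB), the ventral tegmental area (VTA), 5 hypothalamic regions, namely the arcuate (ARH), dorsomedial (DMH), ventromedial (VMH) and paraventricular (PVH) nuclei and the lateral hypothalamic area (LHA), the cerebellar nuclei (CBN), in the hindbrain the dorsal-vagal complex (DVC), the parabrachial nucleus (PB) and the nucleus of the solitary tract (NTS), and 4 parts of the cerebellar cortex, namely central lobule II (CENT2), culmen lobules IV-V (CUL4,5), the uvula (UVU) and the flocculus (FL). The embryonic regions were forebrain (F), midbrain (M), hindbrain (H) and the terminal and peduncular hypothalamus (THy/PHy). Each adult region had between 2 and 4 libraries, F had 1, M had 2, H and THy/PHy had 3 each, and each mESC line had 2.

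Voltage-gated sodium channels open when the membrane depolarises and carry the upstroke of the action potential. Each has 1 large pore-forming alpha subunit, joined by single-pass beta subunits that alter its gating and tie it to other cells. Calcium channels turn depolarisation into calcium entry for transmitter release, dendritic spikes, pacemaking and gene regulation, through a pore-forming subunit (Cacna1) that is accompanied by an extracellular alpha2-delta subunit (Cacna2d) and a cytoplasmic beta subunit (Cacnb). Most genes of the gamma family (Cacng) are better known in brain as the TARP proteins, which carry AMPA-type glutamate receptors to the synapse.

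Levels are given in TPM, a share of all transcripts that is scaled by transcript length and so allows genes to be set side by side. Differences are log2 fold changes from edgeR's quasi-likelihood test on estimated counts of all 70 libraries, in which each region weighed equally, and adjusted p-values are Benjamini-Hochberg values over 19980 genes. All 40 members passed the filter on low counts and were among the genes tested. A gene was called higher or lower where the adjusted p was under 0.05 and the log2 fold change was beyond 1. Library totals ran from 13409041 to 20647884 estimated counts in adult brain, from 9074581 to 22229582 in embryonic brain and from 12985081 to 18501667 in mESC. Mitochondrial transcripts took 2.69% to 39.6% of TPM, the highest share being in VTA replicate 1. The p-values measure the spread between pools. In bulk tissue, fewer cells of a type and less RNA per cell cannot be told apart. The study collected its samples in batches that the labels do not tie to libraries, and adult, embryonic and stem cell samples were collected apart, so that stage and batch cannot be told apart.

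The channel genes were abundant in adult brain. Their summed level had a median of 1918 TPM in the 57 adult libraries (845 to 2856 TPM), 1173 TPM in the 9 embryonic libraries (656 to 1360 TPM) and 106 TPM in the 4 mESC libraries (102 to 109 TPM). The sums hold Cacng6, Cacng7 and Cacng8 at their deposited levels, which were 2 times the sum of their transcripts' levels. In adult brain 29 of the 40 members were at 1 TPM or more in each of the 18 regions. The 5 under 1 TPM in every adult region were Scn4a, the channel of skeletal muscle, Scn10a and Scn11a, known from pain-sensing neurons, Cacna1f, the L-type channel of the retina, and Cacng1, a subunit of the muscle calcium channel. Replicates of a region were mostly close, with a median coefficient of variation of 10.1% over 508 pairs of member and group that had at least 3 libraries and 5 TPM. The 95th percentile was 36.8%. Every one of the 40 members differed among the 18 adult regions in edgeR's F test, against a background of 80.9% of all genes.

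**Figure D1:**
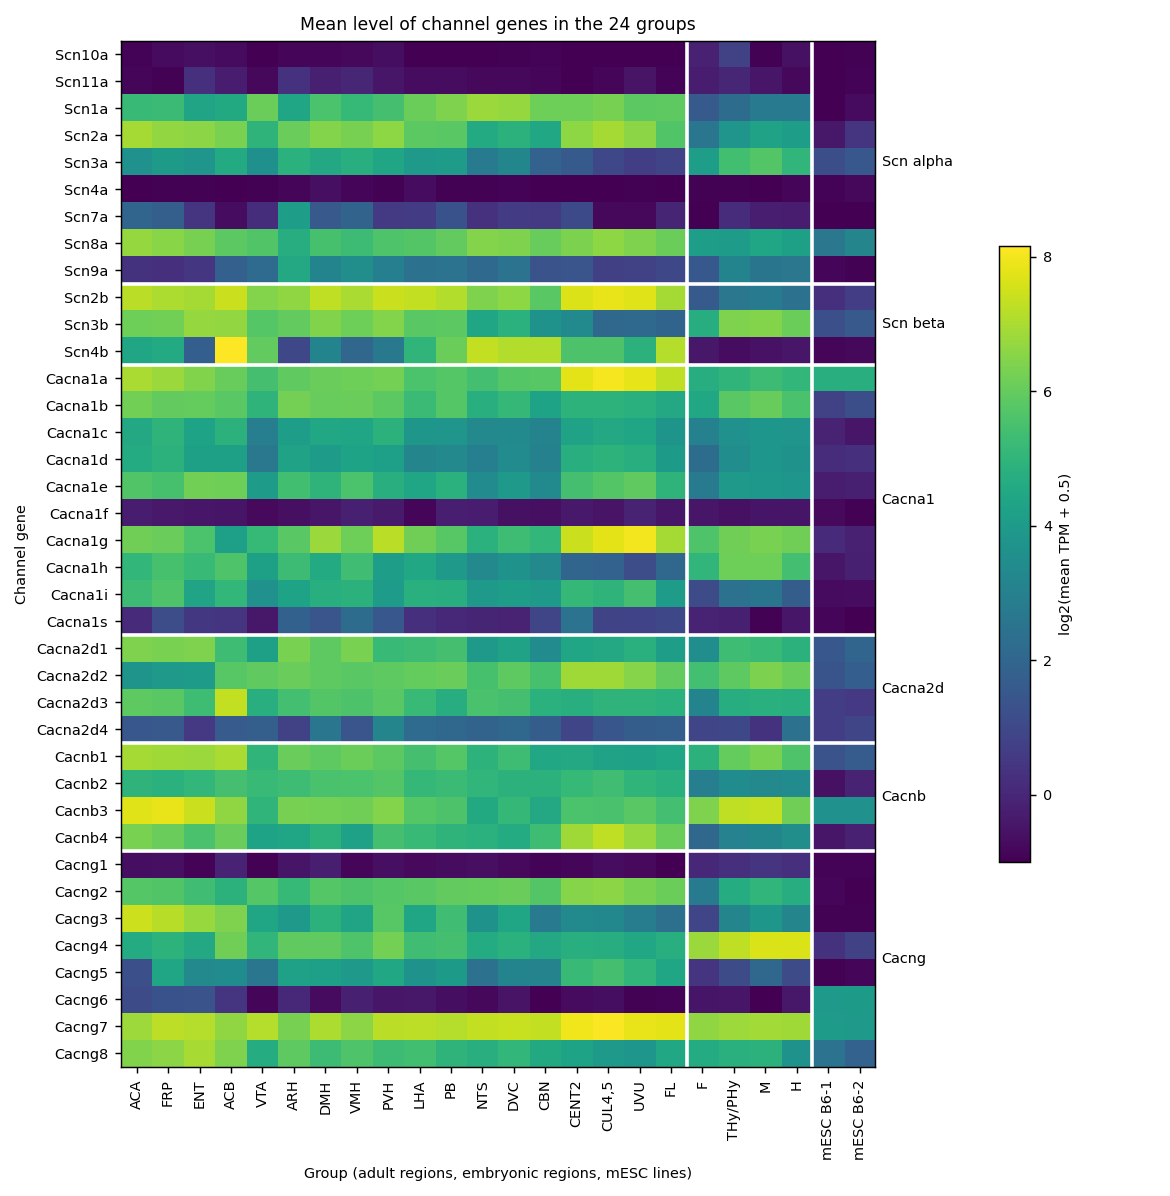
Mean level of channel genes (rows, by subfamily) in the 24 groups (columns: 18 adult regions, 4 embryonic regions, the mESC lines), drawn as log2 of the mean TPM plus 0.5. The Scn4b row is brightest in ACB and dark in the embryonic regions and the adult ARH, and Cacng6 is brightest in the mESC lines.

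Among the alpha subunits of the sodium channel, Scn2a, a channel of the axons of excitatory neurons, led with a mean of 72.5 TPM over the adult libraries. Its first regions were ACA at 122 ± 7.18 TPM (SD, n = 3) and CUL4,5 at 121 ± 5.35 TPM (SD, n = 4), which did not differ beyond their spread, and its last was CBN at 21.7 ± 4.05 TPM (SD, n = 3). Scn8a, the main channel of the mature axon initial segment and nodes of Ranvier, also led in ACA at 104 ± 7.91 TPM and CUL4,5 at 97.2 ± 2.53 TPM, and was last in ARH at 25.9 ± 2.76 TPM. The ARH libraries of Scn8a, at 23.2 to 28.7 TPM, lay below every other adult library, of which the lowest was at 32.1 TPM. The sum of 5 neuron markers was also the lowest of the adult regions in ARH, at 1770 to 1928 TPM, and its part was not tested. The order of Scn1a, the channel of fast-spiking inhibitory neurons, was another one. NTS was first at 109 ± 7.54 TPM (SD, n = 4), DVC second at 103 ± 5.19 TPM with overlapping libraries, and ENT last at 19.9 ± 3.64 TPM.

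Other alpha subunits had their adult peak in the hypothalamus. Scn9a, a channel of sensory and sympathetic neurons, was at 20.5, 21.8 and 24.9 TPM in the ARH libraries and at most at 13.2 TPM in any other adult library. Scn7a, the sodium-level sensor of the circumventricular organs, was at 14.3, 16.5 and 18.9 TPM in ARH and no higher than 3.92 TPM elsewhere in the adult brain. ARH was thus set apart from all other adult libraries for 3 sodium channel alpha subunits, above for Scn7a and Scn9a and below for Scn8a. Scn3a, the alpha subunit known for its early expression, was at 28.3 ± 4.21 TPM in ARH and 26.6 ± 2.75 TPM in VMH, and at 1.13 ± 0.456 TPM in UVU.

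Of the beta subunits, Scn2b was first in CUL4,5 at 229.9 ± 5.28 TPM, where its 4 libraries (225 to 237 TPM) lay above every other adult library (at most 223 TPM), and last in CBN at 55.8 ± 2.19 TPM. Scn3b had its peak in ENT at 103 ± 8.91 TPM and ACB at 102 ± 5.53 TPM, which overlapped, and was at 3.35 ± 1.39 TPM in FL. Scn4b, the beta subunit tied to resurgent sodium current, had a wide range. It was at 286 ± 59.6 TPM in ACB, 160 ± 27.9 TPM in NTS and 1.501 ± 0.421 TPM in ARH.

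Cacna1a, the P/Q-type channel of presynaptic terminals and Purkinje cells, led the pore-forming calcium channel subunits with a mean of 107 TPM in adult brain. CUL4,5 was first at 266 ± 16.0 TPM, its 4 libraries (247 to 283 TPM) lying above every other adult library (at most 243 TPM). The T-type channels, which open near rest and support burst firing, each had an order of their own. Cacna1g was first in UVU at 255 ± 15.2 TPM, above all other adult libraries (238 to 266 TPM against at most 225.5 TPM), and last in ACB at 17.4 ± 5.55 TPM. Cacna1h went the other way, with 49.0 ± 8.36 TPM in ACB and 1.76 ± 0.378 TPM in UVU. Cacna1i was first in FRP at 49.6 ± 6.37 TPM, within the spread of UVU at 43.6 ± 5.26 TPM.

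The R-type channel Cacna1e was at 73.2 ± 13.7 TPM in ENT and 69.9 ± 7.47 TPM in ACB, and at 9.86 ± 0.589 TPM in CBN. The N-type channel Cacna1b, a second channel of transmitter release, varied less, from 19.5 ± 3.50 TPM in CBN to 75.9 ± 5.17 TPM in ARH. Both neuronal L-type channels, which couple activity to gene expression, were low in VTA and CBN, though not there alone. Estimated counts of Cacna1d were 382, 429 and 470 in VTA and 394, 385, 387 and 475 in NTS. Those of Cacna1c were 931, 942 and 932 in VTA and 1043, 883, 950 and 1188 in NTS. Cacna1c was at 4.90, 9.04 and 7.51 TPM in VTA, the lowest of these being replicate 1 with its high mitochondrial share, and at 7.97 ± 0.254 TPM in CBN, while Cacna1d was at 5.80 ± 1.06 TPM and 7.72 ± 0.852 TPM. Cacna1s, the L-type channel of skeletal muscle, reached 5.15 ± 2.72 TPM in CENT2 and 4.19 ± 0.495 TPM in VMH.

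In the alpha2-delta family each of the 4 genes had its highest mean in a different region. Cacna2d1 in ACA overlapped with ENT at 83.4 ± 16.6 TPM, and Cacna2d2 in CENT2 with CUL4,5 at 114 ± 2.14 TPM. Cacna2d1, a target of gabapentin, was at 84.2 ± 10.6 TPM in ACA, and its 3 CBN libraries (8.999 to 11.6 TPM) lay below every other adult library (at least 12.2 TPM). Cacna2d2, the second gabapentin target, showed the reverse in cortex, with ACA libraries at 12.8 to 13.4 TPM below all others (at least 14.4 TPM) and CENT2 at 115 ± 3.84 TPM. Cacna2d3 was at 161 ± 20.7 TPM in ACB, followed by ACA at 58.2 ± 3.95 TPM. Cacna2d4, known from photoreceptors, was at 7.82 and 8.97 TPM in the PVH libraries and at 7.17 TPM or less in every other adult library.

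Cacnb3 led the cytoplasmic beta subunits with a mean of 76.8 TPM and was first in FRP at 232 ± 25.7 TPM. Cacnb4 was first in CUL4,5 at 155 ± 17.04 TPM, Cacnb1 in ACB at 126 ± 4.30 TPM and Cacnb2 in PVH at 52.1 ± 2.13 TPM. In the gamma family Cacng7 had the highest deposited mean at 164 TPM, first in CUL4,5 at 274 ± 8.12 TPM and last in ARH at 78.2 ± 4.47 TPM. The deposited gene levels of Cacng6, Cacng7 and Cacng8, neighbours on chromosome 7, were 2 times the sum of their transcripts' levels in every library. Their folds between samples do not depend on that factor, but their levels beside those of other genes do. Cacng3 was at 175 ± 10.9 TPM in ACA and 4.77 ± 1.31 TPM in FL, and Cacng2, the stargazin gene, was at 94.8 ± 9.55 TPM in CUL4,5 and 29.3 ± 1.98 TPM in ACB.

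The first comparison asked how the 4 regions of the cerebellar cortex (15 libraries) differed from the other 14 adult regions (42 libraries). Of the 40 members 5 were higher, against 8.21% of all genes, and 12 were lower, against 9.75% of all genes. The median log2 fold change of the members was −0.36, beside 0.00 for all genes. Among those higher, Cacna1a ran from 128 to 283 TPM with a median of 228 TPM, against 26.5 to 136 TPM with a median of 59.5 TPM elsewhere, a log2 fold change of 1.74 ± 0.045 (SE, adjusted p = 1.17e-36). The sets met only at the edge, where an FL library lay under the highest ACA library. Cacna1g was at 88.8 to 266 TPM (median 197 TPM) against 12.1 to 162 TPM (median 50.1 TPM), with 1.86 ± 0.058 on the log2 scale (adjusted p = 4.65e-33) and overlapping libraries.

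Also called higher were Cacng5, a gamma gene (log2 fold change 1.501), and Cacnb4 (1.29), the beta subunit that is mutated in the ataxic lethargic mouse. On the lower side were sodium channel genes of both kinds of subunit. Scn3b was at 1.55 to 23.5 TPM (median 2.73 TPM) against 10.9 to 113 TPM (median 62.9 TPM), with −3.77 ± 0.18 on the log2 scale (adjusted p = 7.36e-25). The ranges overlapped, though the medians lay far apart.

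Scn3a was also lower in the cerebellar cortex (log2 fold change −3.34), with a median of 1.38 TPM against 14.7 TPM. Scn7a, at −2.66, was called lower with a value that moved from −3.33 without UVU replicate 1 to −1.25 on log2(TPM + 0.5) in limma, and Scn9a (−1.98) and Scn11a (−2.10) were lower too. Of the calcium channel genes, Cacna1h, the T-type channel opposite in order to Cacna1g, was at 0.959 to 6.36 TPM (median 2.73 TPM) against 6.01 to 56.3 TPM (median 22.1 TPM), with −3.10 ± 0.13 on the log2 scale (adjusted p = 3.89e-27). Cacng3, a TARP of forebrain synapses, was lower (−2.45), as were Cacnb1 (−1.79), Cacng8 (−1.67), Cacng1 (−1.25) and Cacna2d1 (−1.12). Every library of the cerebellar cortex was above the other regions' median for Cacna1a and below it for Cacna1h.

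Among 35 tested partners of these channels, which include the FGF homologous factors, ankyrins, active zone proteins, small G proteins and cornichons, 6 were higher and 6 lower in the cerebellar cortex, with a median log2 fold change of −0.04. Stac, an adaptor of L-type channels, was higher (log2 fold change 2.44), and Rimbp2, which holds calcium channels at release sites, was lower (−2.85). Markers of granule cells (4 of 4 higher; sum 468 to 1523 TPM against 11.8 to 207 TPM) and of Purkinje cells (4 of 4 higher; 1363 to 4066 TPM against 30.1 to 750.3 TPM) moved with the region. Oligodendrocyte markers ran from 1158 to 11110 TPM within the cerebellar cortex, highest in FL. Their part in these results was not tested.

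**Figure D2:**
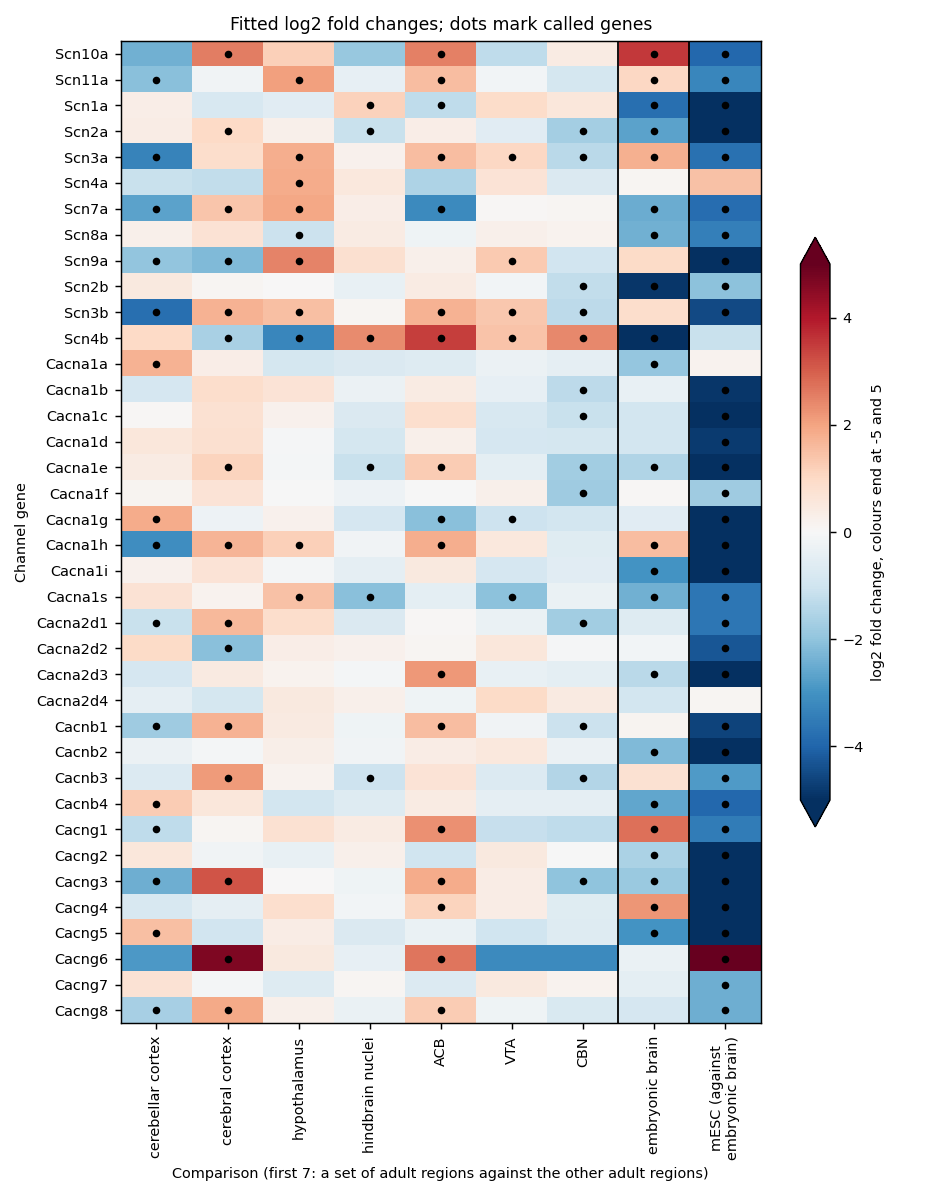
Log2 fold changes of channel genes (rows) in 9 comparisons (columns), red for higher and blue for lower in the set named, with dots on called genes. The first 7 columns set adult regions against the other adult regions, the next sets embryonic against adult brain, and the last sets mESC against embryonic brain, where most rows carry a dot for lower.

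The 3 cortical areas ACA, FRP and ENT (9 libraries against 48) had more members on the higher side. Of the 40 members, 12 were higher (background 8.17%) and 3 were lower (background 7.95%), and the members' median log2 fold change was 0.50 against −0.03 for all genes. Cacnb3, a beta subunit of N-type channels, was at 156 to 261 TPM (median 212 TPM) in cortex and 13.1 to 104 TPM (median 49.8 TPM) elsewhere. No library overlapped, with a log2 fold change of 2.15 ± 0.058 (adjusted p = 1.25e-35). Cacng3 was at 90.7 to 185 TPM (median 145 TPM) against 3.14 to 101 TPM (median 16.9 TPM), a log2 fold change of 3.13 ± 0.10 (adjusted p = 4.62e-32), with ACB as the region that overlapped it.

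The gamma gene Cacng6 differed by 4.66 ± 0.31 on the log2 scale (adjusted p = 3.43e-17), but at a low level, and by 1.79 on log2(TPM + 0.5) in limma. Its cortical libraries ran from 1.29 to 2.85 TPM and the others from 0 to 0.8998 TPM, without overlap. Cacng8 (1.91), another TARP of forebrain, Scn3b (1.75) and Scn10a (2.55) were higher as well, the last of these at no more than 0.192 TPM in any cortical library. The remaining members called higher were Cacnb1 (1.72), Cacna1h (1.69), Cacna2d1 (1.62, to 102 TPM at most), Scn7a (1.38), Cacna1e (1.12) and Scn2a (1.00). Cacna2d2 was lower, at a median of 15.1 TPM against 63.3 TPM, with 12.8 TPM as its lowest cortical value and 41.4 TPM as the lowest elsewhere (log2 fold change −2.11 ± 0.064, adjusted p = 1.82e-33), and none of its libraries overlapped. Scn9a (−2.19) and Scn4b (−1.62) were lower too.

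Among the partners 8 were higher and 3 lower in cortex. Cnih3 (log2 fold change 3.94) and Cnih2 (1.802), which escort AMPA receptors as the TARPs do, and Rimbp2 (2.43) were higher, and Stac (−2.32) was lower. All 4 markers of cortical excitatory neurons were higher (sum 1368 to 1788 TPM against 4.15 to 551 TPM), and all 5 oligodendrocyte markers were lower (579 to 2000 TPM against 844 to 17500 TPM). The part of these markers in the channel values was not tested.

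The 5 hypothalamic regions (14 libraries against 43) differed mainly in sodium channels. Of 9 members called higher (background 6.11%) 7 were sodium channel genes, and all 3 called lower (background 2.74%) were sodium channel genes as well. The median log2 fold change was 0.28 for the members and 0.00 for all genes. Scn9a was at 3.97 to 24.9 TPM (median 8.93 TPM) against 0.570 to 6.97 TPM (median 1.91 TPM), with 2.49 ± 0.10 on the log2 scale (adjusted p = 6.32e-27). The lowest library of the set was of LHA, and the ranges overlapped through libraries of DVC, PB, NTS and VTA.

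Scn3a (log2 fold change 1.82 ± 0.13, adjusted p = 9.31e-18) was at 14.9 to 32.1 TPM in the hypothalamus and 0.527 to 25.1 TPM elsewhere, the upper end being ACB. Scn7a (1.92) owed its highest values to ARH, while its other hypothalamic libraries were within the range of cortex. Scn11a (2.06), at no more than 0.774 TPM, and Scn4a (1.87), at no more than 0.431 TPM, were called at levels close to 0. The call of Scn4a was lost without PVH replicate 1, at a log2 fold change of 1.12. Scn3b (1.49), Cacna1s (1.46) and Cacna1h (1.19) were higher too. On the lower side, Scn4b ran from 1.04 to 33.1 TPM (median 6.70 TPM) against 1.90 to 338 TPM (median 63.8 TPM), a log2 fold change of −3.27 ± 0.15 (adjusted p = 9.55e-25).

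Scn8a (−1.09 ± 0.045, adjusted p = 1.75e-26) was lower in the hypothalamus as well. It had a median of 44.6 TPM there and 81.3 TPM elsewhere, with overlapping libraries. The Scn8a call was lost on log2 TPM in limma, at −0.90. Of the partners 4 were higher and 3 lower, with Rrad, a small G protein that restrains calcium channels, at 2.48 and Fgf11 at −1.796. Neuron markers Rbfox3 (−1.02) and Snap25 (−1.08) were lower (2 of 5), dopamine neuron markers were higher (3 of 3; sum 37.9 to 175 TPM) and 2 of 3 parvalbumin neuron markers were lower (sum 89.6 to 467 TPM against 81.8 to 2508 TPM), and their part was not tested.

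**Figure D3:**
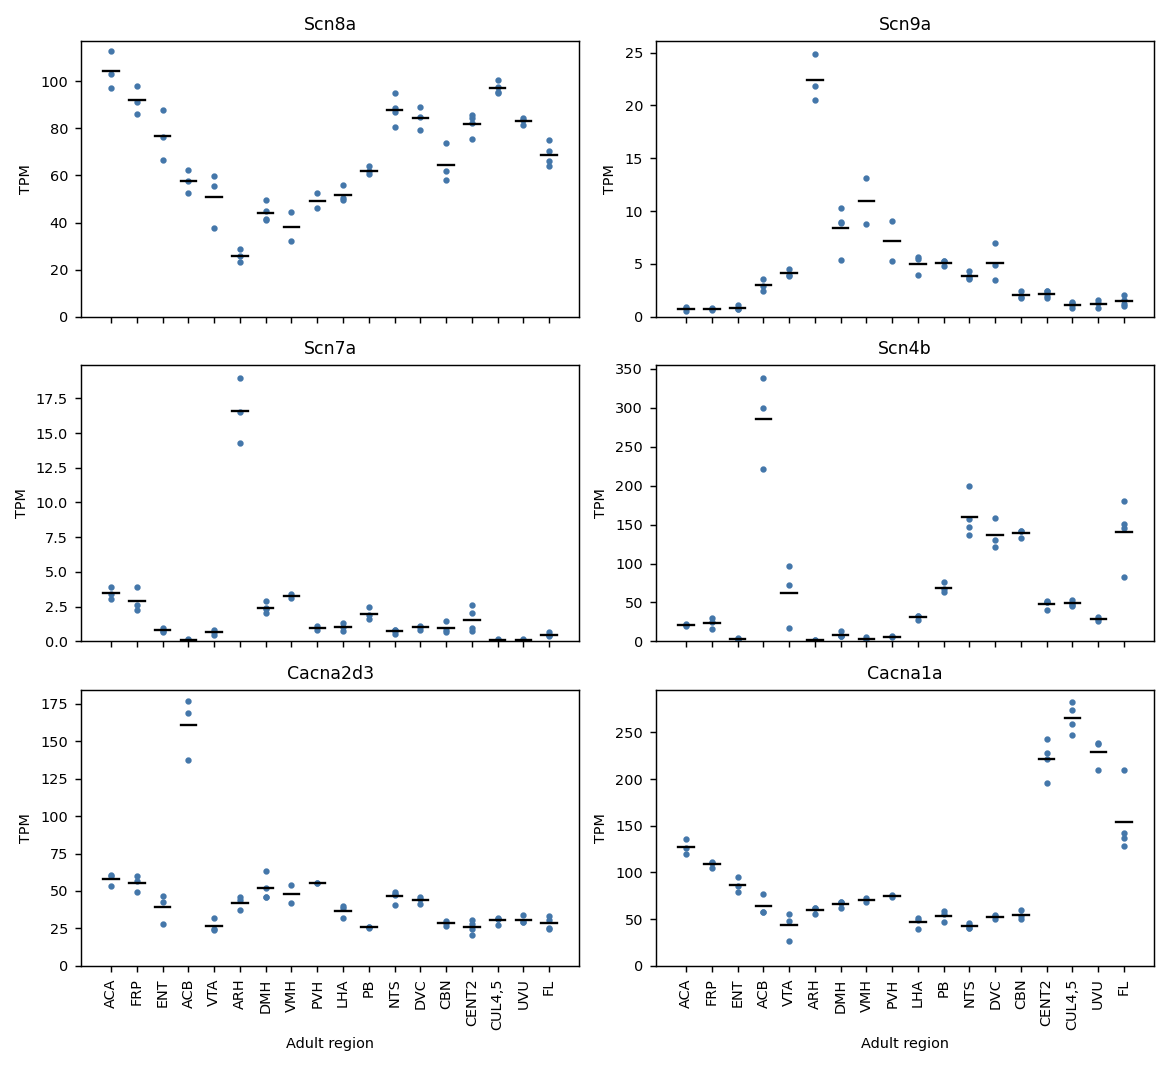
Level in TPM of 6 channel genes in each adult library (points) with the mean of each of the 18 regions (bars). ARH stands above all other regions for Scn9a and Scn7a, ACB for Scn4b and Cacna2d3, and CUL4,5 for Cacna1a, and ARH lies below all others for Scn8a.

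ACB, the ventral striatum (3 libraries against 54), had 15 of 40 members called higher, against a background of 7.30%, and 4 lower, against 5.49%. Fitted as 2 groups, 3 were higher. The members' median log2 fold change was 0.41, beside 0.00 for all genes. Scn4b was at 338, 299.8 and 221 TPM in the ACB libraries and had a median of 36.7 TPM in the others. All 3 lay above every other adult library, of which those of NTS came next. The log2 fold change was 3.45 ± 0.15 (adjusted p = 7.16e-26). Cacna2d3 was at 176, 169 and 137 TPM against 20.9 to 63.6 TPM, also without overlap, with 2.16 ± 0.078 (adjusted p = 1.33e-29). These were the members that set ACB apart from every other adult library.

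Others reached high levels in ACB but shared them with cortex or hypothalamus. Cacng3 (1.86) was at 71.1 to 101 TPM, Cacna1h (1.82) at 39.9 to 56.3 TPM, Scn3b (1.74) at 96.2 to 107 TPM, Cacnb1 (1.52) at 122 to 130 TPM and Cacna1e (1.28) at 65.5 to 78.6 TPM, and all of them overlapped with other regions. Scn3a (1.54), Cacng8 (1.26) and Cacng4 (1.12) were called higher as well. Cacng6 (2.70), Cacng1 (2.30), Scn10a (2.53) and Scn11a (1.55) were called at levels of at most 0.853 TPM in ACB. The Scn10a call was lost without ACB replicate 1, at 1.73, and that of Cacng6 (0.69) on log2(TPM + 0.5) in limma. Scn1a (−1.28), Cacna1g (−2.09) and Scn7a (−3.20) were lower, Cacna1g at 12.1, 17.03 and 23.2 TPM against 18.5 to 266 TPM.

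Of the partners 6 were higher and 3 lower in ACB, led by Rem2 (3.22), a G protein that inhibits calcium channels, and Gsg1l (1.78), a further AMPA receptor subunit. All 4 striatal markers were higher (1722 to 2274 TPM against at most 260 TPM) and all 3 parvalbumin markers were lower. All 4 cortical excitatory markers were called higher, but the ACB libraries were split. Their sum was 31.4 TPM in replicate 1, 317 TPM in replicate 2 and 355 TPM in replicate 3, against a median of 74.0 TPM elsewhere. The part of these markers was not tested.

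The hindbrain nuclei PB, NTS and DVC (10 libraries against 47) differed in fewer members, 2 higher (background 5.17%) and 4 lower (background 2.67%), with a median log2 fold change of −0.20. Both genes called higher were sodium channel subunits. Scn4b was at 63.8 TPM or more (median 133 TPM) against 1.04 to 338 TPM (median 30.1 TPM), with 2.36 ± 0.11 (adjusted p = 6.37e-24). Scn1a was at 79.1 to 117 TPM (median 102 TPM) against 15.9 to 82.7 TPM (median 53.1 TPM), with 1.15 ± 0.067 (adjusted p = 1.31e-20). Scn1a overlapped by little and Scn4b widely, since ACB lay above. Both calls were lost when the libraries were fitted as 2 groups, at 1.12 for Scn4b and 0.998 for Scn1a.

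Scn2a (−1.13), Cacna1e (−1.13), Cacnb3 (−1.05) and Cacna1s (−2.10) were lower in these nuclei. Scn2a had a median of 30.4 TPM there and 86.3 TPM elsewhere, the reverse of the order of Scn1a. Leaving PB out of the set gave 7 lower members in place of 4. Of the partners, Stac2 (1.22) was higher and Nedd4l (−1.15), a ligase that removes sodium channels, and Rem2 (−1.01) were lower. Oligodendrocyte markers were higher (5 of 5; 9572 to 14670 TPM) and 2 of 3 parvalbumin markers were higher, and their part was not tested.

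CBN (3 libraries against 54) had 1 member called higher (background 7.86%) and 13 lower (background 2.88%), with a median log2 fold change of −0.73. Scn4b was the higher one, at 142, 141 and 132 TPM against a median of 36.7 TPM (2.42 ± 0.17, adjusted p = 2.73e-17). Cacna2d1 was at 10.3, 11.6 and 8.999 TPM against 12.2 to 102 TPM, below all other libraries, with −1.76 ± 0.19 (adjusted p = 7.16e-11). Scn2a (−1.70) was at 17.2, 25.0 and 22.9 TPM, Cacna1e (−1.75) at 9.23 to 10.4 TPM and Cacng3 (−2.02) at 3.50 to 9.81 TPM, each overlapping with other regions. Cacna1f (−1.77) was lower, at no more than 0.238 TPM in any CBN library.

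Also called lower in CBN were Cacnb3 (−1.46), Scn3a (−1.36), Scn3b (−1.31), Cacna1b (−1.29), Scn2b (−1.23), Cacna1c (−1.13) and Cacnb1 (−1.08). Cacng6 was not called, though it had no count in any CBN library. Against the pooled libraries of the other adult regions it was at least 3.35-fold lower, with a floor of 3 counts over the group. It had no count in any VTA or FL library either, and its highest adult means were 2.03 TPM in ENT and 1.97 TPM in FRP. Among the partners 2 were higher and 10 lower, Cnih3 (−2.70) and Cnih2 (−1.77) most of all. Oligodendrocyte markers were higher (5 of 5; 10570 to 17500 TPM), as were 3 of 4 granule cell and 3 of 4 Purkinje cell markers, and their part was not tested.

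VTA (3 libraries against 54) had 4 members called higher (background 6.89%) and 2 lower (background 3.65%), with a median log2 fold change of −0.15. All 4 members called higher were sodium channel genes. Scn4b was at 16.5, 96.9 and 72.0 TPM (1.41 ± 0.19, adjusted p = 1.56e-08), Scn3b at 38.4 to 62.5 TPM (1.36), Scn9a at 3.89 to 4.51 TPM (1.31) and Scn3a at 8.35 to 13.99 TPM (1.02). Levels of Scn3b, Scn9a and Scn3a were near those of a typical region. The medians of the adult regional means were 56.1, 3.43 and 12.6 TPM respectively. The other side also held regions of very low level, down to 3.35 TPM for Scn3b in FL and 1.13 TPM for Scn3a in UVU. Cacna1s (−2.05) and Cacna1g (−1.03) were lower. The library with the lowest Scn4b was replicate 1, which had the highest mitochondrial share. Without it, 2 members were higher and 1 lower, and the calls of Scn9a (0.89), Scn3a (0.88) and Cacna1g (−0.79) were lost, whereas without VTA replicate 2 there were 4 lower. On log2 TPM in limma no member was called higher and 11 or 12 were called lower, with the median of all genes at −0.39 or −0.47. Partners counted 4 higher and 2 lower, Fgf13 (1.76) among the first. Dopamine neuron markers were higher (3 of 3; 610 to 2029 TPM against 3.61 to 176 TPM) and so were oligodendrocyte markers (5 of 5), and their part was not tested.

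Embryonic brain (9 libraries of F, M, H and THy/PHy) was then set against the 57 adult libraries. Of the 40 members 17 were lower, 42.5% against a background of 19.9%, and 6 were higher, against 17.8%. The members' median log2 fold change was −0.88, beside 0.00 for all genes. Beta subunits of the sodium channel showed some of the largest differences. Scn4b was at 0.058 to 0.526 TPM in the embryo and at 1.04 to 338 TPM in the adult (log2 fold change −7.35 ± 0.33, adjusted p = 1.08e-26). Scn2b was at 2.52 to 7.24 TPM against 52.03 to 237 TPM (−4.87 ± 0.11, adjusted p = 6.75e-40). Neither gene had overlapping libraries.

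Scn3b was the leading beta subunit in the embryo, with a mean of 73.1 TPM. It was at 25.5 to 95.3 TPM against 1.55 to 113 TPM in the adult, and its log2 fold change of 0.87 ± 0.16 (adjusted p = 3.95e-06) did not pass the limit of 1. The summed level of the alpha subunits had a median of 88.6 TPM in the embryo and 222 TPM in the adult, and the leading gene was Scn3a in the embryo (mean 37.9 TPM) and Scn2a in the adult (72.5 TPM). Scn3a was higher in the embryo, at 16.5 to 52.1 TPM (median 42.5 TPM) against 0.527 to 32.1 TPM (median 11.9 TPM), with 1.79 ± 0.14 (adjusted p = 2.79e-16), although F (16.5 TPM) and H replicate 1 (17.1 TPM) lay within the adult range. In THy/PHy against the adult hypothalamus alone its log2 fold change was 0.80 and was not called.

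Scn1a was at 2.48 to 7.19 TPM (median 5.16 TPM) against 15.9 to 117 TPM (median 58.5 TPM), a log2 fold change of −3.78 ± 0.13 (adjusted p = 1.18e-31). Scn8a was at 13.99 to 21.2 TPM against 23.2 to 113 TPM (median 70.2 TPM), with −2.41 ± 0.071 (adjusted p = 1.13e-34). Neither gene had an embryonic library within the adult range. Scn2a (−2.68) was at 5.61 to 22.3 TPM, overlapping with CBN and NTS, and Scn7a (−2.49) was at no more than 1.36 TPM. Scn10a (3.55) and Scn11a (1.02) were called higher at medians of 0.211 TPM and 0.268 TPM. The highest Scn10a value, 3.37 TPM, was THy/PHy replicate 3, without which its log2 fold change was 2.84. The Scn11a call was lost without H replicate 1, M replicate 1 or THy/PHy replicate 2.

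Calcium channel genes moved in both directions. Cacng4, a TARP, was at 109 to 235 TPM (median 183 TPM) in the embryo against 18.1 to 77.9 TPM (median 27.7 TPM) in the adult, above all adult libraries, with 2.20 ± 0.059 (adjusted p = 1.77e-36). The T-type channel Cacna1h was higher, at 20.7 to 79.0 TPM (median 63.0 TPM) against 0.959 to 56.3 TPM (median 14.96 TPM), with 1.54 ± 0.11 (adjusted p = 1.38e-17). Its T-type relative Cacna1i was lower, at 0.4999 to 6.89 TPM against 4.08 to 56.4 TPM, with −3.00 ± 0.14 (adjusted p = 5.71e-26). The third, Cacna1g, was not called (−0.57) and led the embryonic pore-forming subunits at a mean of 70.5 TPM. This lead depends on the unit. Much of its embryonic TPM lay in annotated processed transcripts with few counts, such as Cacna1g-213 with 28.1% of its TPM and 2.71% of its counts. By estimated counts, Cacna1h lay above Cacna1g in every THy/PHy and M library and H replicate 2, and below it in the other embryonic libraries. Cacng1 was called higher (2.76) at 0.173 to 1.302 TPM.

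Of the beta subunits Cacnb2 was at 7.01 to 14.2 TPM against 24.7 to 53.6 TPM, with no overlap (−2.20 ± 0.090, adjusted p = 2.39e-28). Cacnb4 was lower (−2.59), while Cacnb3 led in the embryo with a mean of 121 TPM and was not called (0.77 on the log2 scale). Scn9a (0.95), Cacna1b (−0.38), Cacng7 (−0.48) and Cacna2d2 (−0.13), whose embryonic libraries lay within or across the adult range, were not called either. Cacng5 (−2.98), Cacna1a (−1.95), Cacng3 (−1.84), Cacng2 (−1.60), Cacna1e (−1.51), Cacna2d3 (−1.33) and Cacna1s (−2.39) were lower. The summed level of Cacna2d genes had a median of 124 TPM in the embryo and 148 TPM in the adult, that of Cacnb genes 217 TPM and 204 TPM, and that of Cacna1 genes 272 TPM and 352.5 TPM, ranges that overlapped.

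Partners followed the members in count, with 18 lower and 2 higher of 35. Unc80, of the sodium leak channel, had a log2 fold change of −5.08, Fgf12 of −3.57, Cabp1 of −2.95 and Sptbn4, the spectrin of the axon initial segment, of −2.88, while Rem2 (1.83) and Cachd1 (1.34) were higher. Progenitor markers were higher (5 of 5; 674 to 2348 TPM against 41.0 to 674 TPM), all 5 oligodendrocyte, all 4 astrocyte and all 3 parvalbumin neuron markers were lower, and the sum of the neuron markers was 1017 to 3101 TPM against 1770 to 5321 TPM, lowest in H replicate 1. Their part in the stage differences was not tested.

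**Figure D4:**
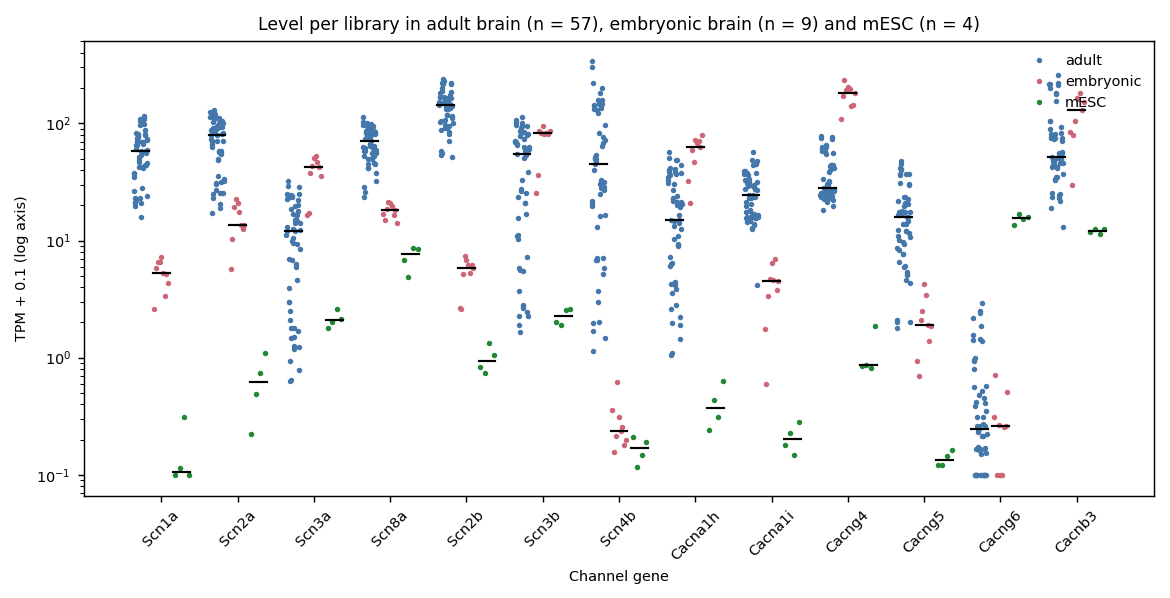
Level per library of channel genes in adult brain (n = 57), embryonic brain (n = 9) and mESC (n = 4), as TPM plus 0.1 on a log axis, with the median of each stage as a bar. Scn2b and Scn4b are separated between adult and embryonic brain, Cacng4 lies above the adult range in the embryo, and Cacng6 is highest in mESC.

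Whether the stage difference was the same in hypothalamus and hindbrain was tested by the difference between THy/PHy against the 5 adult hypothalamic regions and H against PB, NTS and DVC. It was called for 10 of the 40 members, 25.0%, against a background of 9.84%. Scn4b was lower in both embryonic regions, by −5.72 in hypothalamus and −8.82 in hindbrain, a difference of 3.10 ± 1.02 (adjusted p = 0.0173). Scn2a was lower by −2.65 and −1.16 respectively, a difference of −1.499 ± 0.19 (adjusted p = 3.19e-08). Cacng4 was higher in both, by 1.53 and 2.79, with a difference of −1.27 ± 0.17 (adjusted p = 1.36e-07). Scn4b, which differed so much between adult hypothalamus and hindbrain nuclei, was at 0.526 TPM or less in every embryonic library.

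Other differences lay in calcium channel genes. Cacna1c had log2 fold changes of −0.97 in hypothalamus and 0.15 in hindbrain (difference −1.11, adjusted p = 2.38e-07), Cacna1g −0.82 and 0.25 (difference −1.07, adjusted p = 2.52e-05), and Cacna2d1 −0.66 and 0.39 (difference −1.04, adjusted p = 0.00115). Cacna2d4 had −1.295 and 0.81 (difference −2.10, adjusted p = 0.000127), and Cacna1s −2.76 and 0.65 (difference −3.42, adjusted p = 0.000593). Cacng5 was lower in both, by −3.33 and −2.27 (difference −1.06, adjusted p = 0.0377). Of the members named here, only Scn4b had the lower value in hindbrain. The values of Cacna1s and Cacna2d4 in H leaned on replicate 1. Estimated counts in H replicates 1 to 3 were 14, 1 and 3 for Cacna1s and 145, 82 and 71 for Cacna2d4. H replicate 1 had the lowest total of all libraries (9074581) and a mitochondrial share of 22.6%. The test was not repeated without it.

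Sodium channel genes also differ in which exons their transcripts hold. On GRCm38, Scn3a, Scn2a, Scn1a, Scn9a and Scn7a lie in 1 cluster on chromosome 2 between bases 65457118 and 66784914, and Scn8a alone at chr15:100869858-101045938 on the plus strand. In Scn2a, Scn3a, Scn8a and Scn9a the annotation held a pair of neighbouring exons of 92 bases each that never stood in the same transcript. Such pairs encode part of the voltage sensor of the first domain and are known to be spliced by age. The downstream exons of Scn8a, Scn2a and Scn3a are printed because their use is reported next, with capitals at the bases that are not the same in all 3 genes.
Scn8a downstream, chr15:100959603-100959694, plus strand: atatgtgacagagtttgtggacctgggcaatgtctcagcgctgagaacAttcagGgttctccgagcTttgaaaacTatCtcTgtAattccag
Scn2a downstream, chr2:65682690-65682781, plus strand: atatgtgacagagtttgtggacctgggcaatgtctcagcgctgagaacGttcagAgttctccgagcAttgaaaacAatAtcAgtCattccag
Scn3a downstream, chr2:65525695-65525786, minus strand: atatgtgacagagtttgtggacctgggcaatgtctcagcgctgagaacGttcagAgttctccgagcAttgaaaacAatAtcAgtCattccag
The sequence was the same in Scn2a and Scn3a, and Scn8a differed from both at each capital.

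Transcripts with the downstream exon made up 86.8% ± 6.02 (SD, n = 57) of the Scn8a TPM that could be assigned to either exon in adult brain, from 66.1% to 97.7%. In embryonic brain the share was 55.8% ± 8.42 (SD, n = 9), from 38.3% to 66.7%. The libraries of the stages overlapped at 1 point only, the lowest ACB library at 66.1% and the F library at 66.7%. In mESC, where Scn8a was at 7.10 TPM, it was 9.75% ± 11.5 (SD, n = 4). Among adult regions ACB was lowest at 74.2% ± 7.49 (80.9, 75.6 and 66.1%) and PB highest at 95.2%. The estimate came from single reads of 33 cycles that were shared out among the gene's 20 annotated transcripts, so it rests on reads over the whole transcript and not on the exon alone. By estimated counts in place of TPM the shares were 88.7%, 67.3% and 30.5%. With only Scn8a-205 and Scn8a-201 the adult share was 88.0% ± 6.36 and the embryonic one 61.1% ± 23.1, with THy/PHy replicate 1 at 6.24%. The F library (83.6%) and the M libraries (74.4% and 74.9%) then lay within the adult range, which began at 71.6%. In mESC the share from Scn8a-205 and Scn8a-201 alone was 58.2% ± 50.1 (SD, n = 4). These transcripts were at a mean of only 0.133 TPM there, so the low mESC share did not hold with them and is not settled.

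The Scn2a and Scn3a pairs differed less between the stages. In Scn2a the downstream exon took 11.2% ± 5.19 of TPM in the adult and 2.76% ± 3.62 in the embryo, and the ranges overlapped. In Scn3a it took 95.9% ± 8.64 and 89.7% ± 5.27. By these estimates most Scn8a and Scn3a TPM in adult brain lay in annotated transcripts with the downstream exon, and most Scn2a TPM in those with the upstream exon. The downstream exon has the same sequence in Scn2a and Scn3a, so reads within it cannot tell these genes apart. Their shares rest on reads over the whole transcripts, and the annotated Scn2a transcripts of both forms differ in length. Exon use itself was not measured.

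In Scn1a, 1 transcript that is annotated for nonsense-mediated decay, Scn1a-208, held an exon of 64 bases that no other transcript held, at chr2:66293832-66293895 on the minus strand. It is printed since the transcript's share differed by stage.
Scn1a decay exon: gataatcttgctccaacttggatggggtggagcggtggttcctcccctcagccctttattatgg
Of the TPM of those Scn1a transcripts that span the exon, Scn1a-208 took 39.4% ± 15.6 (SD, n = 9) in embryonic brain, from 13.2% to 60.2%, and 5.45% ± 9.90 (SD, n = 57) in adult brain, where the median was 2.05%. The adult range of 0% to 53.2% covered most embryonic values, since VTA libraries were at 53.2, 0 and 32.0%. By estimated counts the means were 23.3% and 2.87%, and the transcript is shorter, at 3562 bases, than Scn1a-204 at 8287 bases. With Scn1a at 2.48 to 7.19 TPM in the embryo, few reads stood behind each embryonic share.

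**Figure D5:**
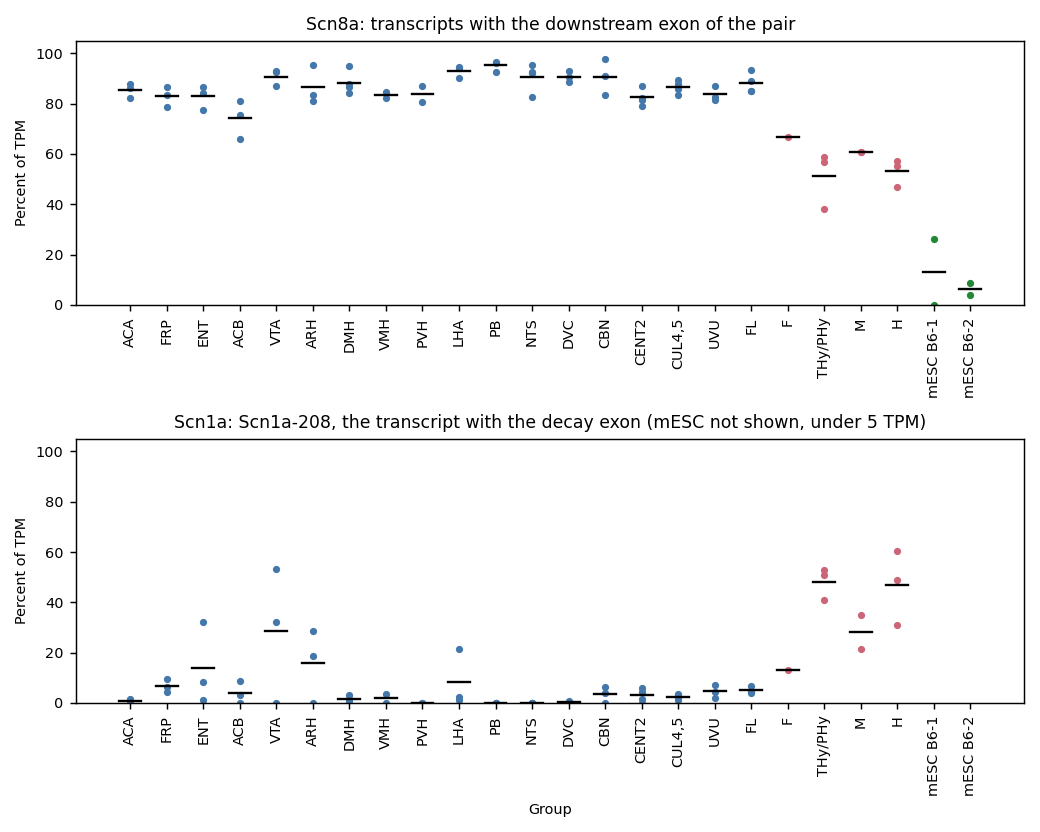
Percent of TPM per library (points) with group means (bars): top, Scn8a transcripts with the downstream exon of the pair; bottom, Scn1a-208, the transcript with the decay exon, among the Scn1a transcripts that span it. The Scn8a share is at 66.1% to 97.7% in adult and 38.3% to 66.7% in embryonic libraries, and the Scn1a-208 share has wide scatter in VTA, ARH and the embryo.

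For the 25 members with a mean of at least 5 TPM at both stages, the leading transcript was another one in the embryo for 4 by TPM (Cacna1h, Cacnb2, Scn1a and Scn2a) and for 5 by estimated counts. Among the shares that moved, Scn8a-205 went from a mean of 69.5% of Scn8a TPM in the adult to 32.9% in the embryo, Scn2a-202 from 54.01% to 30.2% of Scn2a, and Cacnb2-214 from 1.36% to 22.7% of Cacnb2. Cacna1d-212, annotated as a retained intron, was at 19.6% and 41.8% of Cacna1d. These shares were chosen after their values were seen and carry no test.

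The mESC lines (4 libraries) were last set against embryonic brain (9 libraries). Of the 40 members 34 were lower, 85.0% against a background of 29.0%, and 1 was higher, 2.5% against 26.8%. The members' median log2 fold change was −3.93, beside 0.00 for all genes. Cacng6 was at 13.5, 16.7, 15.2 and 15.8 TPM in the mESC libraries and at 0 to 0.607 TPM in embryonic brain, with no overlap and a log2 fold change of 7.46 ± 0.60 (adjusted p = 8.85e-15). It was the only member with its highest level of all 24 groups in an mESC line.

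Cacna1a was not called between mESC and embryonic brain (log2 fold change 0.17, adjusted p = 0.119). It was at 26.9 to 27.4 TPM in mESC and 20.8 to 44.9 TPM in embryonic brain and led the pore-forming subunits of mESC, whose sum was 30.0 to 32.3 TPM. Cacnb3 was lower (−2.83 ± 0.13, adjusted p = 8.84e-26), but at 11.3 to 12.4 TPM it led the beta subunits of mESC. Scn8a, at 4.79 to 8.51 TPM against 13.99 to 21.2 TPM (−3.44 ± 0.10, adjusted p = 7.16e-34), was the leading alpha subunit. Cacna2d4 (0.09), Scn4a (1.47, adjusted p = 0.0548) and Scn4b (−1.12) did not pass both limits.

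The members most different were Cacng2 (−9.21 ± 0.26, adjusted p = 1.78e-35), Cacng3 (−7.69 ± 0.63, adjusted p = 4.86e-16), Scn9a (−7.57 ± 0.43, adjusted p = 3.25e-22), Cacna1h (−7.43 ± 0.36, adjusted p = 3.60e-25), Cacng4 (−7.29 ± 0.18, adjusted p = 8.42e-38) and Scn1a (−7.19 ± 0.31, adjusted p = 4.75e-27). Cacng4 was at 0.722 to 1.78 TPM against 109 to 235 TPM and Cacna1h at 0.142 to 0.527 TPM against 20.7 to 79.0 TPM, without overlap. Cacng2, Cacng3, Scn9a and Scn1a were listed at 0 in 1 or 2 of the 4 mESC libraries, so that their fitted values depend on how zeros are treated. Over all alternatives they ran from −10.8 to −5.19 for Cacng2, −9.53 to −3.71 for Cacng3, −9.46 to −3.34 for Scn9a and −11.0 to −3.18 for Scn1a, with no call lost. Of the partners 28 were lower and 2 higher, with Fgf14 at −9.73 and Unc79 at −7.82. Pluripotency markers were higher (4 of 4; 3721 to 4237 TPM) and all 5 neuron markers lower (186 to 222 TPM against 1017 to 3101 TPM), and their part was not tested.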

How the data were processed

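RNA from mouse brain regions and mESC was sequenced as single reads of 33 cycles. Per the labels, the submitters' processing notes name CASAVA 1.8.2, Kallisto and GRCm38. The authors deposited estimated counts and TPM per transcript and TPM per gene, and the TPM values were used as deposited. Transcripts were joined to genes with the annotation (107987 of 109282 matched, 98.8%), and the estimated counts of each gene were summed and rounded. All 70 libraries entered 1 model with a coefficient for each of the 24 groups (edgeR 4.0.16 in R 4.3.3, TMM, filterByExpr, two-sided quasi-likelihood tests), and regions were averaged with equal weight. The script was tested on simulated data with known changes.

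The channel genes and the lists of partners and markers were chosen with earlier results of these data known. Named with statistics were up to 6 called members per direction with the largest log2 fold change in each comparison, the leading member of each subfamily, and members with 1 region apart from all other adult libraries. Transcript shares were taken for genes with a mean of at least 5 TPM. Alternatives were DESeq2 1.42.0, RLE size factors, no filter on low counts, limma 3.58.1 on log2(TPM + 0.5) and log2(TPM + 0.1), fits of the compared libraries as 2 groups, a replicate block, other reference regions, no fold limit, and each library left out. Fits without VTA replicate 1, the difference of stage differences and the shares of single transcripts were added after seeing the data. No library was a copy of another of its own group (74 pairs), and pairs across groups were not compared for this. The annotation and exon sequences were those of GRCm38. Some genes and sequences are not reported here. Depth limits genes under 1 TPM, and intervals cover the spread between libraries only. Figures were drawn with matplotlib 3.10.9.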

Additional observations from a re-analysis of the deposited data

Results flagged for a closer look

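Within regions of 4 libraries, 11 of 162 combinations of channel gene and region (6.79%) had 1 library far from the others by Dixon's test, where chance gives about 1 in 20. In DMH these were Cacna1a at 61.96 TPM in replicate 4 (others 67.6 to 68.5 TPM), Cacna1i at 33.28 TPM and Cacnb4 at 33.15 TPM in replicate 1 (others 22.8 to 24.5 TPM and 27.9 to 28.5 TPM), and Scn3a at 18.58 TPM and Scn4b at 12.96 TPM in replicate 2 (others 23.6 to 24.3 TPM and 6.68 to 7.04 TPM). In CENT2 replicate 1, Cacna1d was at 23.49 TPM (others 27.4 to 27.8 TPM), Cacnb1 at 34.39 TPM (others 17.9 to 20.2 TPM) and Scn4b at 40.22 TPM (others 49.9 to 51.5 TPM). In FL replicate 1, Cacna1c was at 17.51 TPM (others 11.2 to 11.7 TPM) and Scn3b at 5.43 TPM (others 2.56 to 2.73 TPM). In CUL4,5 replicate 3, Cacna2d3 was at 27.04 TPM (others 31.0 to 31.7 TPM). CENT2 replicate 1 stood apart for 3 genes, and DMH replicates 1 and 2 and FL replicate 1 for 2 each.

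The stage difference of 9 members named here was not the same in hypothalamus and hindbrain by edgeR's test of the difference itself. The log2 values, hypothalamus minus hindbrain, were −1.11 for Cacna1c, −1.07 for Cacna1g, −3.42 for Cacna1s, −1.04 for Cacna2d1, −2.10 for Cacna2d4, −1.27 for Cacng4, −1.06 for Cacng5, −1.499 for Scn2a and 3.10 for Scn4b. H replicate 1 had the lowest sum of neuron markers of the embryonic libraries (1017 TPM), and its part was not tested.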

How the results depend on the processing

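Of 69 named log2 fold changes, 51 kept their direction and call under every alternative run, 18 lost the call under at least 1, 7 of them only when the compared libraries were fitted as 2 groups, and 1 reversed: Scn11a in embryonic brain was −0.13 in H against PB, NTS and DVC. Of 162 counts of called members under an alternative, single libraries left out aside, 126 stayed within 1.5 times. Without the limit on the fold, 17 members were higher in cerebellar cortex, 24 higher and 9 lower in cerebral cortex, 23 and 8 in hypothalamus, 7 and 17 in hindbrain nuclei, 24 and 8 in ACB, 14 and 13 in VTA, 4 and 25 in CBN, 26 lower in the embryo and 2 higher in mESC, by construction. Fitted as 2 groups, in which all other regions form 1 variable group, 7 were higher in cerebral cortex, 5 lower in hypothalamus, 0 higher and 7 lower in hindbrain nuclei, 3 higher in ACB, 0 higher and 0 lower in VTA, 0 higher and 6 lower in CBN, and 3 higher in the embryo. In limma on log2(TPM + 0.5) and log2(TPM + 0.1), VTA had 0 and 0 higher and 11 and 12 lower, and the embryo 3 and 3 higher. Leaving PB out gave 7 lower in hindbrain nuclei. In mESC 2 members were higher, the second being Scn4a, with DESeq2, RLE size factors, against the 18 adult regions or with the replicate block. The cause of the other changes was not tested.

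With single libraries left out, counts higher and lower ran from 5 to 6 and 11 to 12 in cerebellar cortex, 11 to 12 and 3 to 4 in cerebral cortex, 8 to 10 and 3 in hypothalamus, 2 and 4 in hindbrain nuclei, 14 to 15 and 4 to 5 in ACB, 2 to 6 and 1 to 4 in VTA (replicates 1 and 2), 1 and 13 to 14 in CBN, 5 to 7 and 17 to 18 in the embryo, and 1 to 2 and 34 in mESC, 2 without H replicate 1, M replicate 1 or THy/PHy replicate 3. The median log2 fold change of all genes in mESC was 0.14 with RLE size factors, 0.15 with DESeq2 and −0.20 and −0.27 in limma; the last 3 also change the model and, in limma, the unit. In limma it was −0.39 and −0.47 in VTA, and −0.11 and 0.10 in cerebral and cerebellar cortex on log2(TPM + 0.1). Same-numbered libraries of different groups had little deviation in common. The median correlation of their deviations was 0.0097 (669 pairs), against −0.0026 for other pairs. The labels do not say that equal numbers mean shared animals or batches, so this cannot show whether libraries shared either. The block on the replicate number lost the call of Scn11a in the embryo and gave 2 higher members in mESC, and kept every other count within 1.5 times. DESeq2 was not run for the difference among all adult regions.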
